A study of Rattus norvegicus with 9 samples.

Results

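The metalloproteinase genes described here are the matrix metalloproteinases (MMPs), the ADAMs, the ADAMTS proteinases and the tissue inhibitors of metalloproteinases (TIMPs) of the rat, measured in mesenchymal stem cells grown from 3 fat depots. The members were taken by gene symbol alone, as every gene named Mmp, Adam, Adamts or Timp followed by a number, and ADAMTS-like genes were left out. This rule gave 72 of the 35362 genes in the table, of which 23 were MMPs, 27 were ADAMs, 18 were ADAMTSs and 4 were TIMPs. Of the 72 members, 41 passed the filter on low counts and were tested, 17 had counts too few to test and 14 had no count in any sample. The SASCs, PASCs and EASCs were adipose-derived mesenchymal stem cells from the subcutaneous fat of the groin, the perirenal fat and the epididymal fat of Sprague Dawley rats, all male and 6 weeks old. All of them were released from the fat with collagenase type I, grown in medium with fetal bovine serum and harvested at passage 3, without any further treatment. Each group held 3 samples, and the labels tie no sample to a rat. By the methods, RNA was extracted from replicate wells of each group, more of them than the samples analysed here, so the p-values measure the spread between these samples, which may be technical. The comparisons asked how the depots differ, with the SASCs as the reference for both visceral groups and the PASCs as the reference for the EASCs.

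MMPs are secreted or membrane-bound zinc proteinases that cut collagens, elastin and other matrix proteins, and most are made as inactive proenzymes. ADAMs are anchored in the cell membrane and release growth factors, cytokines and receptors from the cell surface, while ADAMTSs are secreted, cut proteoglycans or trim procollagens, and bind the matrix through thrombospondin repeats. TIMPs block the active site of these enzymes, and the growth of fat depends on the remodeling of the collagen around adipocytes and their precursors.

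The samples held between 17591916 and 30299032 counts, and genes of ribosomal RNA took 10.4 to 15.5% of the counts in the SASCs, 22.4 to 32.9% in the PASCs and 15.9 to 40.3% in EASCs. Of 8 markers of mesenchymal stem cells, 7 reached 10 CPM (counts scaled to library size) in each group, and Cd34 was the low one, at 3.29 CPM in the SASCs, 0.581 in the PASCs and 3.90 in EASCs. These markers also differed between the groups, among them Pdgfra, at 1543, 277.9 and 234.7 CPM, and Eng and Itgb1, upregulated in EASCs (1.77 and 1.497 on the log2 scale). Markers of other cells also differed between the groups. The summed level of 6 smooth muscle and pericyte markers was 108.6 to 113.8 CPM in the SASCs, 1099 to 1139 in the PASCs and 2980 to 3018 in EASCs, that of 9 mesothelial markers 21.6 to 23.3, 227 to 228.7 and 192.1 to 206 CPM, and that of 4 adipocyte markers 55.3 to 60.7, 13.5 to 14.4 and 5.64 to 6.20 CPM. The 5 endothelial markers summed to 41.5 to 43.5 CPM in the SASCs, 11.1 to 13.5 in the PASCs and 27.9 to 30.7 in EASCs. Single markers went against these sums, with Tek at 2.55, 8.30 and 8.08 CPM among the endothelial ones and Rgs5 at 1.25, 0.0759 and 0.169 CPM among those of smooth muscle, whose sum in the visceral groups was mostly Acta2. In RNA of whole cultures, fewer cells of a type and less RNA per cell cannot be told apart, and the part of these other cells in the results was not tested.

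Levels are given as CPM scaled by TMM, a method of edgeR that corrects for a few very abundant genes, and levels of different genes were compared as FPKM, which also divides by the length of the gene. Genes were counted as upregulated or downregulated differentially expressed genes (DEGs) when they changed by more than 2-fold with an adjusted p under 0.05 in edgeR's quasi-likelihood test, adjusted over all 14770 genes tested. Fewer members were upregulated than downregulated in both visceral groups compared with SASCs. In EASCs, 10 of the 41 members tested (24.4%) were upregulated and 17 (41.5%) were downregulated, where 13.6% and 14.2% of all genes tested were. In PASCs, 6 (14.6%) were upregulated and 18 (43.9%) were downregulated, where 12.0% and 14.9% of all genes were. Between EASCs and PASCs, 5 members were higher in EASCs and 1 was lower, beside 5.19% and 2.20% of all genes. The median log2 fold change of the 41 members was −0.34 in EASCs and −0.76 in the PASCs compared with SASCs and 0.30 in EASCs compared with PASCs, while the medians of all genes tested were 0.01, −0.01 and −0.01. Members reach these counts only after the filter on low counts, which favors genes that are high in at least one group. Scaled by total counts without TMM, the EASCs had 6 upregulated and 19 downregulated members, where 9.13% and 23.2% of all genes were, and the median of all genes itself moved by −0.396 on the log2 scale in EASCs and by −0.324 in the PASCs.

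**Figure D1:**
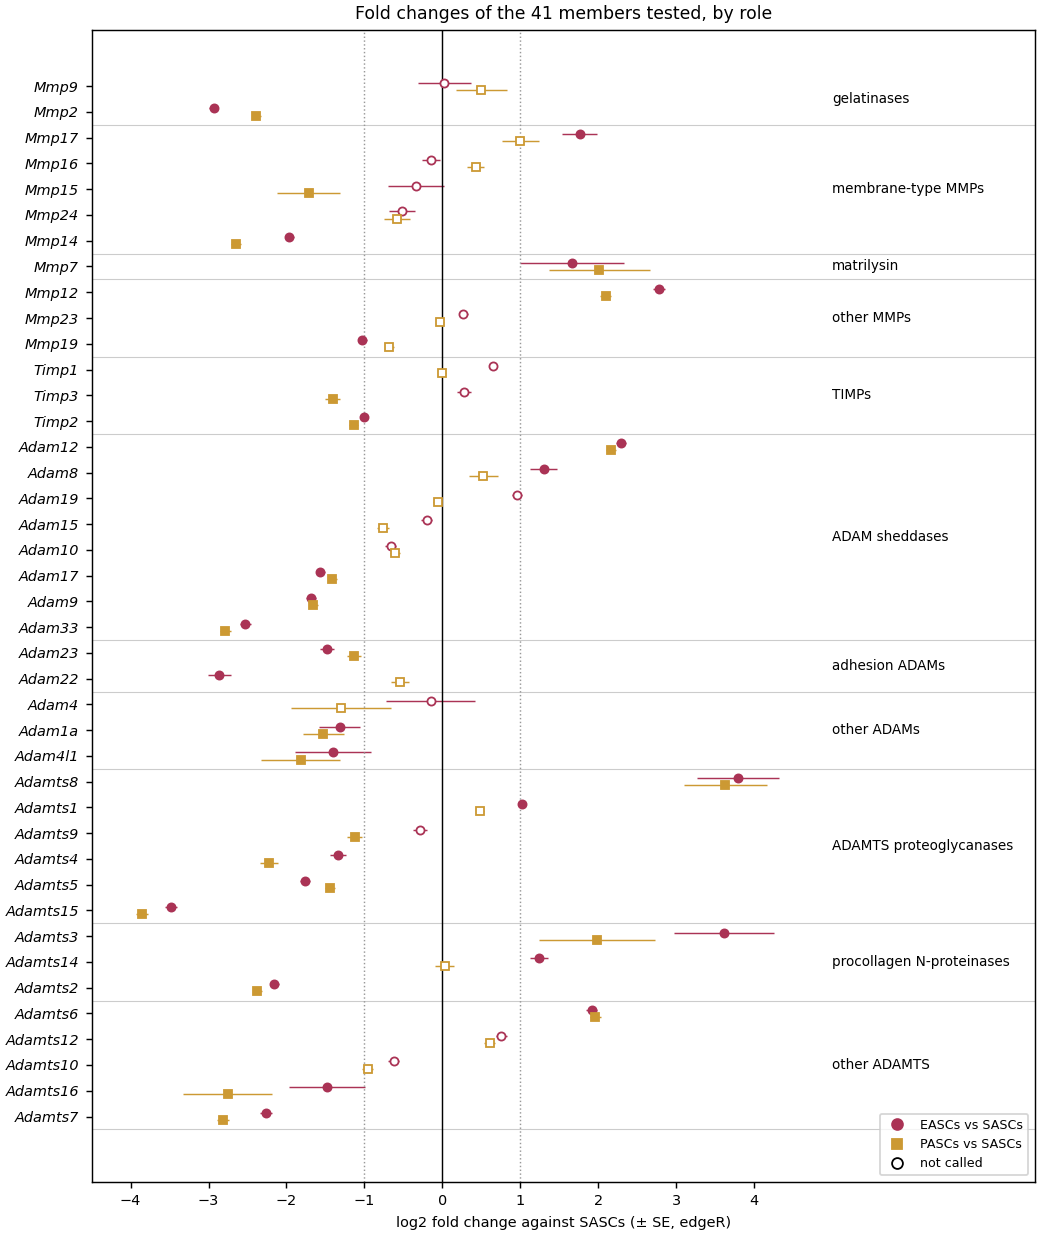
Log2 fold changes of the 41 members tested, in EASCs (circles) and PASCs (squares) compared with SASCs, with standard errors derived from edgeR's test. Members are grouped by role, filled symbols are DEGs and dotted lines mark a fold change of 2. Mmp2, Mmp14, Adam33, Adamts2, Adamts7 and Adamts15 lie far to the left in both groups, and Mmp12, Adam12, Adamts6 and Adamts8 lie to the right.

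Gelatinase A, encoded by Mmp2, was the most abundant member in SASCs and was downregulated in both visceral groups. It cuts denatured collagen and the type IV collagen of basement membranes. Mmp2 (chr19:15542771-15570589 on rn6, minus strand) stood at 4188, 4446 and 4377 CPM in the 3 SASCs, at 832.6, 822.2 and 835.2 CPM in the PASCs, and at 552.1, 561.3 and 587 CPM in the EASCs. The groups did not overlap, and the spread within each was small beside the distance between them. The log2 fold change was −2.94 ± 0.060 (SE) in EASCs and −2.39 ± 0.058 in the PASCs (edgeR, adjusted p = 7.08e-25 and 5.18e-23), and EASCs were below PASCs by a log2 fold change of −0.55, less than the 2-fold threshold. The span of Mmp2 overlaps LOC102549037 on the other strand, which held 45981 counts over all samples against 414560 for Mmp2, and since the use of strand in counting was not stated, reads of the overlap cannot be told apart. Gelatinase B, encoded by Mmp9, was low in every group, with means of 1.44 ± 0.260 CPM (SD, n = 3) in SASCs, 2.00 ± 0.704 in the PASCs and 1.47 ± 0.709 in EASCs, which overlapped.

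Mmp14 encodes the main membrane-type collagenase, which also activates the proenzyme of Mmp2 at the cell surface in a complex with Timp2. Per length it was second to Mmp2 among the MMPs in SASCs and PASCs, at 797.4 and 127.4 FPKM, and first in EASCs, at 204.6 FPKM, and it was downregulated in both visceral groups. Mmp14 (chr15:33074441-33083666, plus strand) was at 1867, 2031 and 1957 CPM in the SASCs, 317.1, 295.1 and 323.1 in the PASCs, and 491.9, 491.2 and 519.8 in EASCs. No sample of one group lay within the range of another. The log2 fold change was −1.96 ± 0.058 in EASCs and −2.65 ± 0.060 in the PASCs, so the order of the visceral groups was the reverse of that for Mmp2, with EASCs above PASCs by 0.68 ± 0.057 for Mmp14. Per sample, the FPKM ratio of Mmp2 to Mmp14, which does not depend on the scaling of the libraries, was 1.80, 1.76 and 1.80 in the SASCs, 2.11, 2.24 and 2.08 in the PASCs, and 0.903, 0.919 and 0.908 in EASCs.

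Among the other membrane-type MMPs, no shared direction was seen. Mmp15 was at 1.04, 2.46 and 1.85 CPM in the SASCs, 0.421, 0.822 and 0.318 in the PASCs, and 1.76, 1.09 and 1.34 in EASCs, so only the PASCs stood apart. It was downregulated in PASCs compared with SASCs (log2 fold change −1.71 ± 0.404) and was higher in EASCs than in PASCs (1.37 ± 0.413), and the second call was lost without replicate 1 of the PASCs (1.22) or of the EASCs (1.18). Mmp17, which is held in the membrane by a lipid anchor, had means of 1.61, 3.16 and 5.36 CPM in the SASCs, PASCs and EASCs and was upregulated in EASCs (1.76 ± 0.226), while the difference of 0.999 in the PASCs lay at the 2-fold threshold and reached 1.34 without replicate 3 of the SASCs. Its span on chromosome 12 overlaps abundant genes such as Cct6a and Sumf2 on the same strand, with 24471 and 6130 counts against 718 for Mmp17, so its low count is uncertain. Mmp16 and Mmp24 passed no threshold of 2-fold in either comparison with SASCs, with log2 fold changes between −0.58 and 0.43. Mmp25 held 12 counts in all 9 samples.

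**Figure D2:**
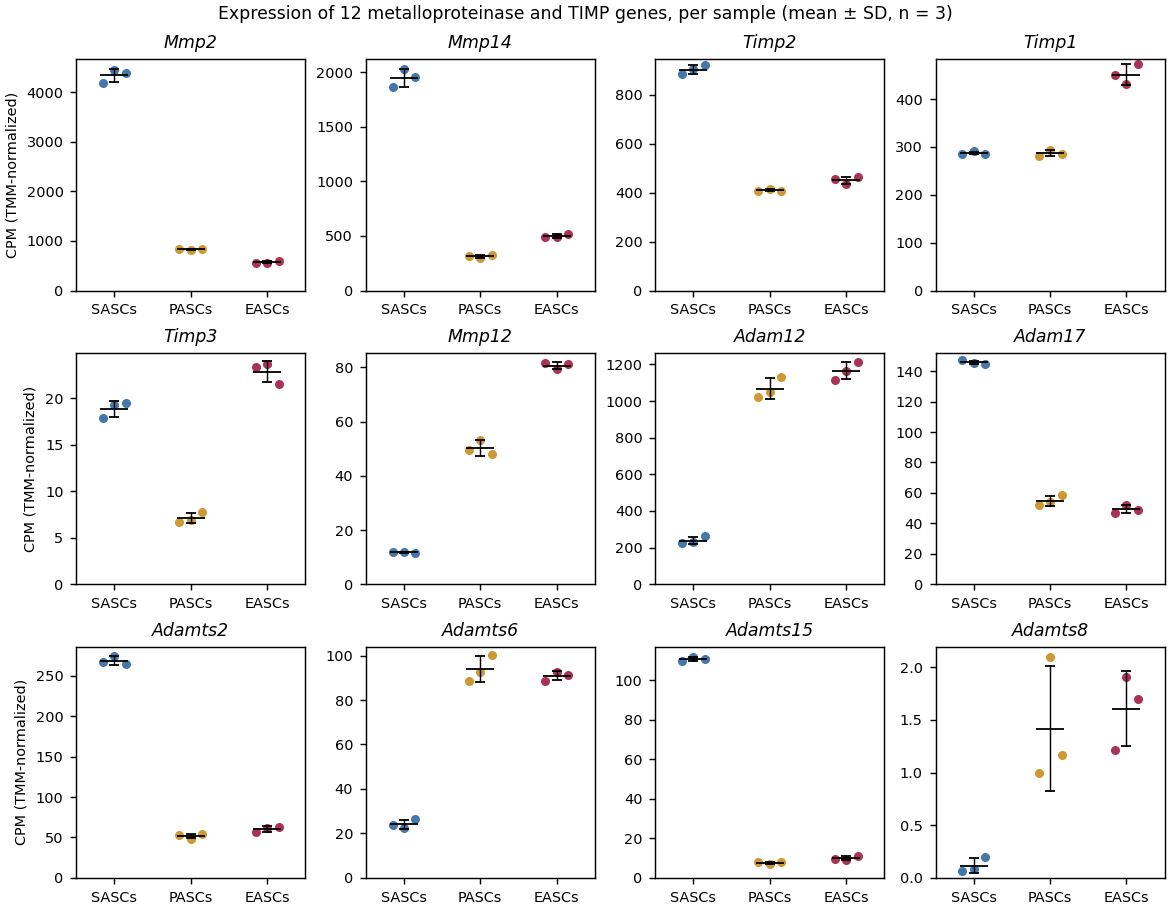
Expression of 12 members in each sample, as CPM scaled by TMM, with points for samples and bars for the mean ± SD of the 3 samples of a group. Mmp2, Mmp14, Timp2, Adam17, Adamts2 and Adamts15 are highest in the SASCs, Timp1 is highest in EASCs, Timp3 is lowest in PASCs, and Mmp12, Adam12, Adamts6 and Adamts8 are lowest in SASCs.

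The TIMPs did not follow a single pattern. Timp2, which inhibits MMPs and takes part in the activation of Mmp2, was the most abundant TIMP in SASCs per length, at 543.2 FPKM. It stood at 885, 903.1 and 918.8 CPM in the SASCs, at 408.2, 413.6 and 406.4 CPM in PASCs, and at 454.3, 434.5 and 461.7 CPM in EASCs. All visceral samples were below all SASCs. It was downregulated in PASCs (log2 fold change −1.14 ± 0.053), while in EASCs the change of −1.003 ± 0.053 lay at the 2-fold threshold and was no longer a DEG with upper-quartile scaling (−0.966), without genes of ribosomal RNA (−0.998), without replicate 3 of the SASCs (−0.991) or without replicate 2 of the EASCs (−0.974). Timp1, a secreted inhibitor of most MMPs, was at 286, 290.5 and 285.2 CPM in the SASCs, 281.7, 294.5 and 285.1 in the PASCs, and 449.3, 430.4 and 473.8 in EASCs. With TMM the EASCs alone stood apart, by a log2 difference of 0.65 ± 0.053 (edgeR, adjusted p = 1.94e-11) that is under the 2-fold threshold, and that without TMM was 0.249 (edgeR, adjusted p = 0.173). Between PASCs and SASCs the difference of Timp1 was −0.00 with a 95% interval of the fit from −0.11 to 0.10, but it was −0.33 without TMM (edgeR, adjusted p = 0.0732), so which group stands apart for Timp1 depends on the scaling. In that same comparison the median of all genes tested also moved, by −0.324 without TMM.

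Timp3, which binds to the matrix and inhibits ADAMs and ADAMTSs as well as MMPs, was lowest in PASCs. It was at 17.9, 19.2 and 19.4 CPM in the SASCs, 6.69, 6.95 and 7.73 in the PASCs, and 23.4, 23.7 and 21.6 in EASCs. The 3 groups did not overlap. Timp3 was downregulated in PASCs compared with SASCs (log2 fold change −1.41 ± 0.101) and stood higher in EASCs, by 1.69 ± 0.0999 over PASCs (edgeR, adjusted p = 1.55e-13), whereas the difference of 0.28 ± 0.090 between EASCs and SASCs was under the 2-fold threshold and took the opposite sign without TMM (−0.109). Timp4 was barely counted, with 10, 9 and 2 counts in the SASCs, 0, 0 and 3 in the PASCs, and 0, 2 and 1 in EASCs, and was not tested. Timp1, Timp3 and Timp4 each overlap a synapsin gene on the other strand, and these held 254 counts for Syn1, 41 for Syn3 and 3 for Syn2, few beside those of Timp1 and Timp3, while Ddc8, on the same strand as Timp2, held 1656 counts against 126855.

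The summed FPKM of the MMPs exceeded that of the TIMPs in SASCs and was below it in both visceral groups. This sum rests mainly on Mmp2 and Mmp14, which made up 38.2% and 21.4% of the FPKM of all members in SASCs. Of the 11 MMPs tested, 3 were upregulated and 3 downregulated in EASCs (27.3% each, beside 13.6% and 14.2% of all genes), and 2 and 3 in PASCs (18.2% and 27.3%, beside 12.0% and 14.9%), with median log2 fold changes of −0.14 and −0.03. The FPKM summed over the 23 MMPs was 2378 ± 77.7 (SD, n = 3) in SASCs, 552.1 ± 8.79 in the PASCs and 569.6 ± 11.3 in EASCs, where the order of the last 2 turned without TMM (523.1 and 512.9). The FPKM summed over the 4 TIMPs was 896.6 ± 10.6 in the SASCs, 596.9 ± 10.1 in the PASCs and 824.3 ± 34.3 in EASCs. MMPs therefore made up 63.7% ± 0.586 of the FPKM of all members in the SASCs, 35.9% ± 0.606 in the PASCs and 30.3% ± 0.360 in EASCs, and TIMPs 24.01% ± 0.361, 38.8% ± 0.840 and 43.8% ± 0.871. The summed FPKM of the ADAMs was 242.5 ± 8.83 in the SASCs, 253.2 ± 13.1 in the PASCs and 316.2 ± 13.5 in EASCs, but without TMM the SASCs were the highest, at 287.2 ± 12.4 against 240.2 ± 27.5 and 284.5 ± 48.6. That of the ADAMTSs was 217.9 ± 7.47, 137.5 ± 5.02 and 172.9 ± 4.61. These sums count RNA and not active enzyme.

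**Figure D3:**
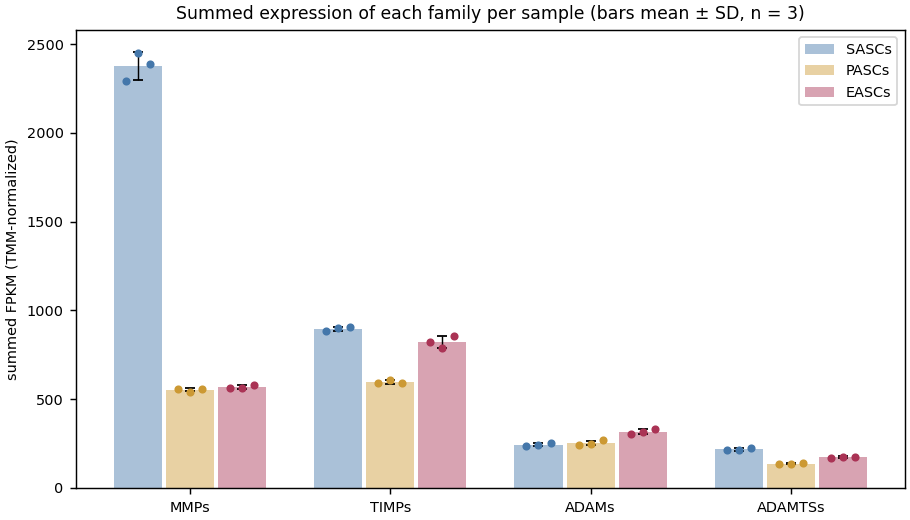
Summed FPKM of the MMPs, TIMPs, ADAMs and ADAMTSs, with bars for the mean ± SD of 3 samples and points for the samples. The MMP bar of the SASCs reaches 2378 and those of the PASCs and EASCs 552.1 and 569.6, while the TIMP bars lie between 596.9 and 896.6.

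Within a sample, the ratio of an enzyme to an inhibitor is free of library scaling. The FPKM ratio of Mmp2 to Timp2 was 2.58, 2.69 and 2.60 in the SASCs, 1.11, 1.085 and 1.12 in the PASCs, and 0.664, 0.705 and 0.694 in EASCs. The ratio of Mmp14 to Timp2 was 1.43, 1.53 and 1.45 in the SASCs, 0.527, 0.484 and 0.539 in the PASCs, and 0.735, 0.767 and 0.764 in EASCs. The ratio of Timp1 to Timp2 ran the other way, with means of 0.643 ± 0.014, 1.42 ± 0.022 and 2.02 ± 0.042. No groups overlapped in any of the 4 ratios, in all 3 comparisons, and each exact two-sided permutation test of 3 against 3 samples gave p = 0.1, the smallest that this design allows (0.104 after adjustment over 27 tests of ratios and family sums).

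A group of 10 MMP genes lies side by side on chromosome 8, from 5522739 to 5900965 on rn6, a span of 378.2 kb, and holds collagenases, stromelysins, matrilysin and the macrophage elastase gene Mmp12. Of these, Mmp12 alone was abundant, and it was upregulated in both visceral groups. Mmp12 (chr8:5606592-5616494, plus strand) was at 11.8, 12.0 and 11.4 CPM in the SASCs, 49.3, 53.4 and 47.9 in the PASCs, and 81.5, 79.3 and 81.2 in EASCs. The groups did not overlap, and the log2 fold change was 2.78 ± 0.072 in EASCs and 2.098 ± 0.072 in the PASCs (edgeR, adjusted p = 1.30e-22 and 1.01e-19). Several macrophage markers were also higher, though not all of them. The 9 macrophage and leukocyte markers in the table, none of them at 0, summed to 91.7 to 99.8 CPM in the SASCs, 140.6 to 144.8 in the PASCs and 241.1 to 251.1 in EASCs, with means of 1.02, 1.62 and 3.06 CPM for the pan-leukocyte gene Ptprc, 10.4, 58.1 and 85.6 for the lysozyme gene Lyz2, and 3.54, 12.6 and 15.5 for the macrophage growth factor receptor Csf1r. Cd163 and Mrc1, scavenger and mannose receptors of macrophages, did not follow Mmp12 in PASCs, with means of 27.8, 7.52 and 30.8 CPM for Cd163, which was downregulated in PASCs (−1.88 ± 0.093), and 17.7, 14.3 and 35.8 CPM for Mrc1. The part of macrophages in the level of Mmp12 was not tested.

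The other 9 genes of the group were near or at 0 in all samples, with at most 23 counts in any of them. Mmp13, which encodes the main collagenase of rodents, had 5, 11 and 10 counts in the SASCs, 0 in each of the PASCs, and 1, 0 and 0 in EASCs. Mmp3, which encodes stromelysin 1, had 13, 9 and 7 counts in the SASCs, 1, 2 and 0 in the PASCs, and 1, 4 and 2 in EASCs. Both were highest in the SASCs, but at these depths 3 counts equal 0.104 to 0.159 CPM, and neither was tested. Mmp7, which encodes matrilysin, was the only other gene of the group tested, with 8, 5 and 0 counts in the SASCs, 17, 15 and 19 in the PASCs, and 23, 5 and 12 in EASCs. It was upregulated in PASCs (log2 fold change 2.02 ± 0.650) and in EASCs (1.66 ± 0.669), where the samples overlapped with SASCs and the call was lost without TMM (1.24) and without replicate 2 (1.81) or 3 (1.18) of the SASCs or replicate 1 of the EASCs (1.04). Mmp8 and Mmp10 had 5 and 7 counts in all samples, Mmp27 had 5, Mmp1 and Mmp1b had 1 each, and Mmp20 had 0. The 4 collagenase genes of the list, Mmp1, Mmp1b, Mmp8 and Mmp13, were thus all left untested.

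Promoters of several of these genes share a binding motif for AP-1, the Fos and Jun dimer known to drive collagenase and stromelysin genes in response to growth factors. The motif TGAGTCA or its reverse complement TGACTCA was searched in the 250 bases before the start of each gene in RefSeq's promoter set for the rat build GRCr8, in which 48 of the 72 members had an entry. It was present in 7 of the 48 (14.6%), against 1354 of all 33469 promoters (4.05%). Among the 28 tested members with an entry it was present in 3 (10.7%). Members without an entry, among them Mmp2, Mmp14 and Adamts15, could not be searched. Of the 7, 6 belong to the 10 genes of the group on chromosome 8, and the other was Adam19, where it starts 169 bases before the start. The windows below run from 110 to 51 bases before the start, counted so that the base just before the start is −1, and show that the motif, in capitals, starts between −87 and −61 in all 6 genes, which at these samples' levels range from the abundant Mmp12 to Mmp1 with a single count.
Mmp13: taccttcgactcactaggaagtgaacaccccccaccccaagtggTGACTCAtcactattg
Mmp12: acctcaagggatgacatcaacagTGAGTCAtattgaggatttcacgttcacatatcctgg
Mmp3: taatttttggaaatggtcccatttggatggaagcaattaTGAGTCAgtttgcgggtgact
Mmp1: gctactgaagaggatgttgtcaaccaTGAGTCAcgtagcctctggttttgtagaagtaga
Mmp10: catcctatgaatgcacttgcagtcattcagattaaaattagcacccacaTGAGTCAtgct
Mmp7: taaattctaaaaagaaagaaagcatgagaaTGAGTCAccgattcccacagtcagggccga

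All 6 windows are read 5′ to 3′ on the plus strand of GRCr8, and that of Mmp12 is chr8:12866542-12866601. The promoters of Mmp1b, Mmp8, Mmp27 and Mmp20 held neither form of the motif. A match describes the letters only. Of the 11 AP-1, ETS and RUNX factor genes tested, 3 were downregulated in EASCs and 2 in the PASCs. In either group 0 were upregulated, beside 13.6% of all genes in EASCs and 12.0% in PASCs. The downregulated genes were 27.3% and 18.2% of the list, beside 14.2% and 14.9% of all genes, so the share in PASCs was near that of all genes. Fos was at 44.8 ± 0.305 CPM in the SASCs, 4.91 ± 0.632 in the PASCs and 5.80 ± 0.533 in EASCs, Junb was at 529.4 ± 28.2, 169.9 ± 4.88 and 136.3 ± 10.3, and Fosl1 was at 37.3 ± 1.99, 20.8 ± 0.298 and 13.5 ± 1.11, where only the change in EASCs passed 2-fold. Not all factors fell. Jund was at 77.7, 113.4 and 85.6 CPM and Ets2 at 27.3, 44.0 and 34.0 CPM in the same order, and neither was a DEG.

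**Figure D4:**
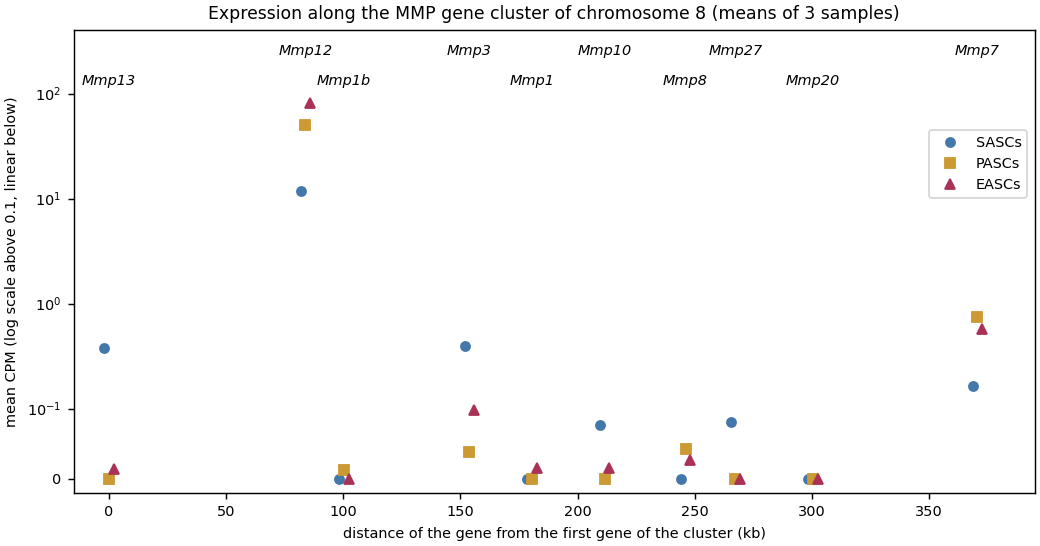
Mean CPM of the 10 MMP genes side by side on chromosome 8, by distance in kb from the first of them, with symbols set slightly apart for SASCs, PASCs and EASCs and a vertical axis that is logarithmic above 0.1 and linear below. Mmp12 rises from 11.7 CPM in SASCs to 80.7 in EASCs, and every other gene stays under 1 CPM.

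Of the remaining MMPs, Mmp19 and Mmp23 were well expressed. Mmp19, which cuts basement membrane proteins, was at 127.6, 127.3 and 134 CPM in the SASCs, 81.0, 76.8 and 85.1 in the PASCs, and 62.3, 64.0 and 64.4 in EASCs. The groups did not overlap, and the gene was downregulated in EASCs (log2 fold change −1.03 ± 0.057, or −0.99 and no longer a DEG with upper-quartile scaling) and at −0.68 ± 0.056 in the PASCs. Mmp23, an unusual membrane MMP, differed by less than 2-fold between the groups, at 101.8 ± 5.67 CPM in the SASCs, 99.8 ± 1.14 in the PASCs and 122.7 ± 3.22 in EASCs, and its share of the FPKM of all members went from 2.19% in SASCs to 5.22% in PASCs and 5.25% in EASCs. Mmp11 and Mmp28 had no count, and Mmp21 had 7.

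The ADAMs with a known sheddase activity did not share a direction, and several of them were not DEGs. Of the 9 listed, 8 were tested, 2 were upregulated and 3 were downregulated in EASCs, and 1 was upregulated and 3 were downregulated in PASCs. The upregulated ones were 25% of those tested in EASCs and 12.5% in PASCs (all genes 13.6% and 12.0%), and the downregulated ones 37.5% in each (all genes 14.2% and 14.9%), counts too small to read against those shares. Adam12, known for its expression in regenerating muscle and in precursors of fat cells, was at 223.3, 229.3 and 262.6 CPM in the SASCs, 1022, 1050 and 1130 in the PASCs, and 1118, 1166 and 1214 in EASCs. All 6 visceral samples lay above all SASCs, while PASCs and EASCs overlapped, and the log2 fold change was 2.29 ± 0.065 in EASCs and 2.16 ± 0.065 in the PASCs (edgeR, adjusted p = 1.27e-21 and 4.82e-21). Per length, Adam12 was the most abundant ADAM in both visceral groups, at 156.9 ± 6.45 FPKM in EASCs and 143.7 ± 7.59 in the PASCs, and was at 32.1 ± 2.85 FPKM in SASCs.

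Adam19, a close relative of Adam12 that sheds neuregulins, separated the EASCs from the other groups. It was at 285.3, 292.8 and 327.2 CPM in the SASCs, 284.4, 275.8 and 308.1 in the PASCs, and 558.8, 577 and 624 in EASCs. The SASCs and PASCs overlapped, and all EASCs lay above them. EASCs exceeded PASCs by a log2 fold change of 1.02 ± 0.062, a call at the edge of the 2-fold threshold that was lost without TMM (0.939), without replicate 2 of the PASCs (0.986) and without replicate 3 of the EASCs (0.978), and the difference of 0.96 ± 0.062 from SASCs was under it, but passed it without replicate 3 of the SASCs (1.02) and was 0.56 without TMM.

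Adam17, which releases tumor necrosis factor and ligands of the epidermal growth factor receptor, was at 147, 145.3 and 144.8 CPM in the SASCs, 52.2, 53.8 and 58.5 in the PASCs, and 46.8, 52.2 and 48.8 in EASCs. It was downregulated in EASCs (log2 fold change −1.56 ± 0.060) and in PASCs (−1.41 ± 0.060), without overlap. Adam10, which cuts Notch and cadherins, was at 99.1, 98.3 and 101.1 CPM in the SASCs, 59.9, 64.6 and 72.0 in the PASCs, and 64.1, 66.2 and 58.0 in EASCs. All visceral samples were below all SASCs here as well, but the log2 fold changes of −0.66 ± 0.065 and −0.61 ± 0.065 in EASCs and PASCs were under the 2-fold threshold, except without TMM in EASCs (−1.05). Adam9 was at 143 ± 7.38 CPM in the SASCs, 45.4 ± 1.20 in the PASCs and 44.5 ± 2.03 in EASCs. Adam33, known from studies of asthma, was at 86.0 ± 3.17 CPM in the SASCs, 12.5 ± 0.324 in the PASCs and 14.9 ± 0.813 in EASCs.

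Adam9 and Adam33 were downregulated in both visceral groups, and with a log2 fold change of −2.53 ± 0.072 in EASCs and −2.79 ± 0.074 in the PASCs, Adam33 fell most among the tested sheddases. Adam15 passed no 2-fold threshold in any comparison of the reported fit, with means of 56.0, 33.1 and 48.8 CPM in the SASCs, PASCs and EASCs. Adam8, which is best known from leukocytes, was at 2.80 ± 0.189 CPM in the SASCs, 4.01 ± 0.599 in the PASCs and 6.93 ± 1.15 in EASCs and was upregulated in EASCs (1.30 ± 0.177, or 0.889 and not a DEG without TMM), beside the higher macrophage and leukocyte markers given with Mmp12. Adam28 had no count.

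Adam22 and Adam23 lack a catalytic site and act in adhesion as receptors of the LGI proteins. Adam22 (chr4:22700838-23002969, plus strand) was at 12.97, 16.3 and 17.4 CPM in the SASCs, 10.1, 10.4 and 11.4 in the PASCs, and 2.30, 2.11 and 1.97 in EASCs. It was the single member lower in EASCs than in PASCs past the 2-fold threshold, by a log2 fold change of −2.32 ± 0.152 (edgeR, adjusted p = 1.32e-12), and it was downregulated in EASCs compared with SASCs (−2.86 ± 0.148), while the difference of PASCs was −0.54 ± 0.120. A neighbor on the same strand, Dbf4, overlaps its span and had 684 counts against 2024 for Adam22. Adam23 was at 71.8 ± 6.41 CPM in the SASCs, 32.9 ± 5.11 in the PASCs and 25.7 ± 1.17 in EASCs and was downregulated in both. Adam11 had 25 counts in all and was not tested.

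Most of the other 15 ADAMs, which are known mainly from the male germ line and from immune cells, had few or no counts in these cultures. Only Adam1a, Adam4 and Adam4l1 passed the filter, all under 4 CPM. Adam1a was at 3.55 ± 0.248 CPM in the SASCs, 1.21 ± 0.238 in the PASCs and 1.42 ± 0.514 in EASCs and was downregulated in both, as was Adam4l1, whose call in EASCs was lost without replicate 2 of the EASCs (−1.22). Adam4 was not a DEG in any comparison. A row of 5 ADAM genes follows on chromosome 16 within short distances of one another, and only the first of them, Adam9, was expressed, with 16765 counts over all samples against 4 for Adam32 and 0 for Adam5, Adam3a and Adam18.

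The ADAMTS genes of the proteoglycanase branch, which cut aggrecan and versican, held both large decreases and a large increase. Of 6 tested, 2 were upregulated and 3 downregulated in EASCs, and 1 was upregulated and 4 were downregulated in PASCs. These are 33.3% and 50% of the 6 in EASCs and 16.7% and 66.7% in PASCs, beside 13.6% and 14.2%, and 12.0% and 14.9%, of all genes. Adamts15 (chr8:31977001-32000378, minus strand) was at 109.6, 111.7 and 110.4 CPM in the SASCs, 7.92, 7.18 and 7.84 in the PASCs, and 9.63, 9.20 and 11.0 in EASCs. It showed the largest decrease of the 41 members in both groups, with log2 fold changes of −3.48 ± 0.076 in EASCs and −3.86 ± 0.079 in the PASCs (edgeR, adjusted p = 3.55e-24 and 1.15e-24). Adamts8 lies 17304 bases from it on chromosome 8, a pair noticed after its values were seen, and had the largest increase of members in PASCs and EASCs, at a low level. It had 2, 2 and 4 counts in the SASCs, 26, 56 and 22 in the PASCs, and 29, 47 and 38 in EASCs, with a log2 fold change of 3.80 and a 95% interval of the fit from 2.77 to 4.83 in EASCs, and of 3.63 with an interval from 2.59 to 4.67 in the PASCs.

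The pair Adamts1 and Adamts5 also lies together, 60236 bases apart on chromosome 11, and was noticed after its values were seen. Adamts1, which is induced at ovulation and in inflammation, was at 205, 209.5 and 217.2 CPM in the SASCs, 283.9, 295.3 and 303.7 in the PASCs, and 421.5, 430 and 431.6 in EASCs. The 3 groups were separate and in this order, and the log2 fold change was 1.02 ± 0.053 in EASCs, a DEG by a narrow margin that was lost without TMM (0.629), and 0.48 ± 0.053 in the PASCs. Adamts5, the main aggrecanase of mouse cartilage, was at 174.6, 179.2 and 200 CPM in the SASCs, 63.5, 68.4 and 72.3 in the PASCs, and 50.4, 56.8 and 55.4 in EASCs, and was downregulated in both. Per length, Adamts5 stood above Adamts1 in the SASCs, at 66.3 ± 4.87 and 48.2 ± 1.41 FPKM, and below it in EASCs, at 19.5 ± 1.21 and 97.9 ± 1.25 FPKM. Adamts4, the other main aggrecanase, was at 27.7 ± 0.921 CPM in the SASCs, 5.91 ± 1.07 in the PASCs and 10.9 ± 0.806 in EASCs and was downregulated in both. Adamts9 was downregulated in PASCs, with means of 26.7, 12.2 and 21.8 CPM, and Adamts20 had 5 counts.

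The 3 procollagen N-proteinases, which remove the amino-terminal propeptide of fibrillar procollagens, differed in direction. Adamts2, the main enzyme of type I procollagen, was at 266.6, 274.6 and 264 CPM in the SASCs, 52.8, 48.4 and 54.2 in the PASCs, and 56.3, 61.2 and 63.0 in EASCs. All visceral samples lay far below the SASCs, with log2 fold changes of −2.16 ± 0.059 in EASCs and −2.37 ± 0.060 in the PASCs. Adamts14 was at 6.74, 8.02 and 6.93 CPM in the SASCs, 7.73, 7.33 and 7.04 in the PASCs, and 16.4, 18.2 and 16.6 in EASCs, so the EASCs alone stood apart. They stood above the PASCs by 1.21 ± 0.112 (edgeR, adjusted p = 1.39e-09), and the gene was upregulated compared with SASCs (1.24 ± 0.112, or 0.849 and not a DEG without TMM). Adamts3, which also takes part in the activation of the lymphatic growth factor Vegfc, had 3, 0 and 3 counts in the SASCs, 5, 8 and 11 in the PASCs, and 25, 30 and 21 in EASCs. It was called higher in EASCs than in SASCs (3.61, 95% interval of the fit 2.36 to 4.87), in PASCs than in SASCs (1.98, 0.52 to 3.45) and in EASCs than in PASCs (1.63, 0.64 to 2.62), but only the first call held in all alternatives. That of PASCs was lost without TMM (1.68), without replicate 2 of the SASCs (1.44) and without replicate 3 of the PASCs (1.52), and that between the visceral groups without replicate 1 (1.32) or 2 (1.53) of the PASCs and without replicate 2 of the EASCs (1.52). Per length, Adamts2 stood at 34.0 FPKM against 1.41 for Adamts14 in the SASCs, and at 7.61 against 3.32 FPKM in EASCs.

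Among the other ADAMTSs, Adamts6, a regulator of microfibrils and focal adhesions, rose in both visceral groups. It was at 23.6, 22.2 and 26.5 CPM in the SASCs, 88.6, 92.8 and 100.1 in the PASCs, and 88.6, 92.8 and 91.2 in EASCs. The visceral groups overlapped each other and lay above all SASCs, and the log2 fold change was 1.92 ± 0.069 in EASCs and 1.96 ± 0.069 in the PASCs. Adamts7, which cuts the cartilage matrix protein Comp, was at 96.9, 96.8 and 102 CPM in the SASCs, 13.2, 14.2 and 14.8 in the PASCs, and 19.2, 20.0 and 22.4 in EASCs and was downregulated in both (−2.26 ± 0.071 in EASCs and −2.81 ± 0.075 in the PASCs). Its nearest relative, Adamts12, was at 58.5 ± 2.45, 89.4 ± 11.6 and 98.9 ± 3.17 CPM, above SASCs in every visceral sample but under the 2-fold threshold. Adamts10, which like Adamts6 binds fibrillin, was at 72.6 ± 2.07, 37.3 ± 3.46 and 47.1 ± 2.87 CPM, also under that threshold in the reported fit. In the PASCs it lay near the threshold (−0.957 ± 0.070), and it was not followed over the alternatives. Adamts16 was downregulated in both groups at a low level, with 27, 21 and 16 counts in the SASCs, 1, 6 and 2 in the PASCs, and 6, 9 and 7 in EASCs. Adamts17 had 54 counts, Adamts19 had 12, all of them in EASCs, and Adamts18 had none.

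EASCs and PASCs were also compared directly. Higher in EASCs were Timp3, Adamts3, Mmp15, Adamts14 and Adam19, and Adam22 was lower (12.2% and 2.44% of the members tested, beside 5.19% and 2.20% of all genes), while 35 of the 41 members tested were not DEGs. Without replicate 2 of the PASCs, 3 of the 44 members then tested were higher in EASCs, beside 4.75% of all genes. The largest of these differences were −2.32 for Adam22 and 1.69 for Timp3 on the log2 scale. Among the abundant members, Mmp14 and Mmp12 were each 0.68 higher in EASCs, Timp1 was 0.65 higher, and Mmp2 was 0.55 lower, all without overlap of the samples. At any fold change, an adjusted p under 0.05 was reached by 21 members that were higher in EASCs and by 6 that were lower, beside 16.1% and 14.5% of all genes. At a fold change above 1.5 it was reached by 12 that were higher and 1 that was lower, beside 8.40% and 4.77% of all genes. In PASCs compared with SASCs, 11 members were higher and 24 lower at any fold change, beside 34.6% of all genes in each direction. In EASCs compared with SASCs, 15 were higher and 22 lower, beside 35.5% and 34.3% of all genes.

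Partners of these enzymes were described from a list of 34 activators, receptors and other inhibitors, of which 29 were tested. In EASCs 3 were upregulated and 5 downregulated, in PASCs 5 and 9, and between EASCs and PASCs 3 were higher and 1 was lower in EASCs. In EASCs compared with SASCs these are 10.3% and 17.2% of the list, near the 13.6% and 14.2% of all genes, in PASCs 17.2% and 31.0% beside 12.0% and 14.9%, and between EASCs and PASCs 10.3% and 3.45% beside 5.19% and 2.20%. The medians of the list were −0.25, −0.28 and 0.29. Lrp1, the endocytic receptor that clears several MMPs and ADAMTSs from the medium, was at 4016 ± 316 CPM in the SASCs, 1072 ± 128 in the PASCs and 1078 ± 112 in EASCs, a log2 fold change of −1.90 in EASCs and −1.91 in the PASCs. Of the plasminogen system, which activates proenzymes of MMPs, the urokinase gene Plau fell from 76.8 ± 1.94 CPM in SASCs to 10.6 ± 1.68 in the PASCs and 18.5 ± 1.26 in EASCs, and its receptor Plaur rose from 12.2 ± 1.82 to 31.8 ± 3.93 and 40.9 ± 2.96 CPM. The proprotein convertase gene Pcsk6 was downregulated in both groups (−1.61 ± 0.068 in EASCs and −2.48 ± 0.072 in the PASCs), while Furin, which removes the propeptides of Mmp14 and of many ADAMs, was at 178, 121.3 and 150.2 CPM. Reck, a membrane-anchored inhibitor of MMPs, and Bsg, an inducer of MMPs, were under the 2-fold threshold in every comparison. Tspan15, a tetraspanin that directs Adam10, was upregulated in both groups, from 0.884 ± 0.323 CPM in SASCs to 2.46 ± 0.337 in the PASCs and 6.65 ± 0.840 in EASCs, while its more abundant relatives Tspan5, Tspan14 and Tspan17 were not DEGs in any comparison, with means in EASCs of 62.8, 17.9 and 18.8 CPM. Thbs1, which binds MMPs and is taken up through Lrp1, was upregulated in both groups and Thbs2 was downregulated in both, at 7448 and 608.3 CPM in EASCs against 2119 and 1499 CPM in SASCs.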

How the data were processed

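RNA of SASCs, PASCs and EASCs at passage 3 was sequenced, 3 samples a group, with groups and replicate numbers taken from the labels. The authors trimmed paired-end reads of 150 bp with cutadapt (3.1) and FastX-Toolkit (0.0.13) and aligned them with TopHat (2.1.1). The methods name rn6 and the submitters' processing notes rn5, and the positions in the table are those of rn6. The authors deposited whole counts per gene, not normalized. The counting tool, the use of strand and the treatment of reads with several matches are not given in the sources used here.

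In R (4.3.3), counts were scaled by TMM (factors 0.740 to 1.23) and filtered with filterByExpr of edgeR (4.0.16), and all 9 samples were fitted by its quasi-likelihood test without a block, with Benjamini-Hochberg adjustment over 14770 genes and the study's thresholds for DEGs. The fit was also run on counts simulated with the same spread for all genes, which does not test the uneven spread of these samples. FPKM was computed from the scaled counts and the gene length in the table. Replicates of a group differed by more than sampling noise (chi-square per degree of freedom 4.51 to 17.5), and deviations of same-numbered samples did not go together (correlations −0.030 to 0.071). At the depths given, 3 counts equal 0.104 to 0.159 CPM, which covers counting error only.

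The members and lists were chosen with earlier results of these data known. Named members were the TIMPs, Mmp2, Mmp14, Adam10, Adam17, the 6 most abundant, the largest DEGs of each comparison at 10 CPM or more and the largest below it, and others were named after their values were seen. Alternatives were DESeq2 (1.42.0), other scalings, filters and thresholds, a replicate block, leaving out each sample and, chosen after seeing the data, removal of 7 genes of ribosomal RNA.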

Additional observations from a re-analysis of the deposited data

Results flagged for a closer look

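Differences between the 2 visceral groups under the same contrast with SASCs were tested by comparing EASCs with PASCs directly, and 6 members passed, 5 of them higher and 1 lower in EASCs (12.2% and 2.44% of the 41 tested, beside 5.19% and 2.20% of all genes). The log2 fold change of EASCs compared with PASCs was 1.69 for Timp3, 1.63 for Adamts3, 1.37 for Mmp15, 1.21 for Adamts14, 1.02 for Adam19 and −2.32 for Adam22. Timp3 and Mmp15 were lower in PASCs than in SASCs, Adamts14 and Adam22 differed from SASCs in EASCs and not past the threshold in PASCs, and Adam19 passed the threshold only between the visceral groups. Adamts3 rests on 106 counts in all 9 samples and Mmp15 on 264. What underlies these differences was not tested.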

How the results depend on the processing

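Over 16 alternatives to the reported fit, 1477 of 1533 values of 96 fold changes of named members kept their direction and their side of the threshold, 24 were no longer past it, 11 were newly past it and 21 changed sign, all of them not DEGs. Some members given above, such as Adam15, Adamts10 and Adamts12, were not among those followed in this way. Scaling by total counts without TMM left 6 upregulated members in EASCs compared with SASCs, beside 9.13% of all genes. In EASCs compared with PASCs, 12 members were higher and 1 lower at a fold change above 1.5, beside 8.40% and 4.77% of all genes. At any fold change, 21 were higher and 6 lower, beside 16.1% and 14.5%. In PASCs compared with SASCs, 11 were higher and 24 lower at any fold change, beside 34.6% of all genes in each direction. Leaving out each sample in turn gave 3 to 5 members higher in EASCs than in PASCs, beside 4.63 to 5.18% of all genes. The lowest count, 3 of 44 members beside 4.75% of all genes, came without replicate 2 of the PASCs. The other counts ranged from 9 to 10 upregulated and 18 to 20 downregulated in EASCs and from 5 to 7 and 20 to 22 in PASCs, where more genes passed the filter (15046 to 15293 tested, 42 to 45 of them members). Of all genes, 13 to 13.6% were upregulated and 13.8 to 14.8% downregulated in EASCs and 11.6 to 12.0% and 14.3 to 15.3% in PASCs in these fits. Each time 1 member was lower in EASCs than in PASCs, beside 2.01 to 2.16% of all genes.

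Fitted with a block for replicate numbers, the counts were 10 and 17 in EASCs, 7 and 18 in PASCs and 5 and 1 between the visceral groups, where 13.4% and 14.1%, 11.9% and 14.8%, and 5.06% and 2.16% of all genes were called. The samples share only this number, and the block changed one call of a named member, Mmp17 in PASCs compared with SASCs (1.02), which lay at the threshold in the reported fit (1.00) and passed it in 8 alternatives.

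Signs changed for the following values, none of them DEGs. Timp1 in PASCs compared with SASCs became 0.00899 with upper-quartile scaling, 0.0023 without a filter, 0.0019 with the 2 groups alone and 0.0017 without genes of ribosomal RNA, and ran from −0.017 to 0.015 when samples were left out, and moved most without TMM, to −0.33. Without TMM, Timp3 in EASCs compared with SASCs was −0.11 and Adamts14 in PASCs compared with SASCs was −0.30, and Adam9 in EASCs compared with PASCs was 0.00016 with upper-quartile scaling. When samples were left out, the range was −0.022 to 0.11 for Adamts14 and −0.11 to 0.0017 for Adam19 in PASCs compared with SASCs. In EASCs compared with PASCs it was −0.046 to 0.0099 for Adam9, −0.045 to 0.58 for Adamts8, −0.12 to 0.014 for Adam10, −0.085 to 0.0048 for Adamts6 and −0.98 to 0.053 for Mmp7. Except where the construction shows it, the cause was not tested.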
